A study of Mus musculus with 4 samples.

Results

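Cholinergic and motor neuron genes were followed in the lumbar spinal cord of nerve-injured mice with and without adrenal glands. The genes were chosen by name, and every probe whose gene name in the array files matched one of them was used. The set comprised 10 genes and 13 probes, out of 30222 gene names and 39429 probes on the array. Chat, Slc18a3, Slc5a7 and Ache belong to acetylcholine signalling, Isl1, Isl2, Mnx1 and Lhx3 encode homeodomain transcription factors of motor neurons, and Prph and Chodl are made in motor neurons among other cells.

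The samples were spinal slices of lumbar segments from male ICR mice, an outbred stock, taken 7 days after partial sciatic nerve ligation (PSL) of the right hindlimb. All 4 groups carried the ligation, and no uninjured cord was compared here. In the ADX-PSL groups both adrenals had been removed and the mice drank saline, whereas in the sham-PSL groups the adrenals were exposed and left in place. Each operation was sampled at zeitgeber time 10 (ZT10), late in the light phase, and ZT22, late in the dark phase. One array was made for sham-PSL ZT10, sham-PSL ZT22, ADX-PSL ZT10 and ADX-PSL ZT22, so no condition had a replicate array. The sources used here do not state how many mice, or which side of the cord, entered each RNA. The comparisons asked whether levels depended on the time of day and whether removal of the adrenals, the source of circulating glucocorticoids, altered them.

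Motor neurons lie in the ventral horn of the cord and send their axons through the ventral roots and the sciatic nerve to muscle. They release acetylcholine, which choline acetyltransferase makes in the cytoplasm, the vesicular transporter loads into synaptic vesicles, acetylcholinesterase breaks down in the synaptic cleft, and the high-affinity choline transporter recovers as choline. Cholinergic interneurons and preganglionic autonomic neurons use the same machinery. Because whole tissue was measured, fewer cells of a type and less RNA per cell cannot be told apart in any value that follows.

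Levels are the authors' normalized intensities in arbitrary units on a linear scale, and they serve to compare arrays for 1 probe, not probes with each other. A probe counted as measured where the scanner software marked it well above background. All 13 probes were measured on all 4 arrays. Beside each log2 ratio of 2 arrays, the spot error is the error of that ratio that the scanner software assigns to the spots. It covers the reading of the spots and leaves out the differences between mice, RNA extracts and hybridizations. It was about 0.20 for most probes, a value assigned by the software and not measured here. For comparison, 290 probes printed 10 times were measured on all arrays. Their median SD of log2 signal between the spots of 1 array was 0.04 to 0.06.

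The tissue carried the profile of a lumbar cord. All 6 pan-neuronal markers on the array, 5 of 5 oligodendrocyte, 6 of 6 astrocyte and 6 of 6 microglial markers, and the 4 lumbar Hox genes listed were measured on all arrays. The summed level of the neuronal markers lay between 190570 and 211680. The share of probes measured per array ran from 65.1% to 70.1%.

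**Figure D1:**
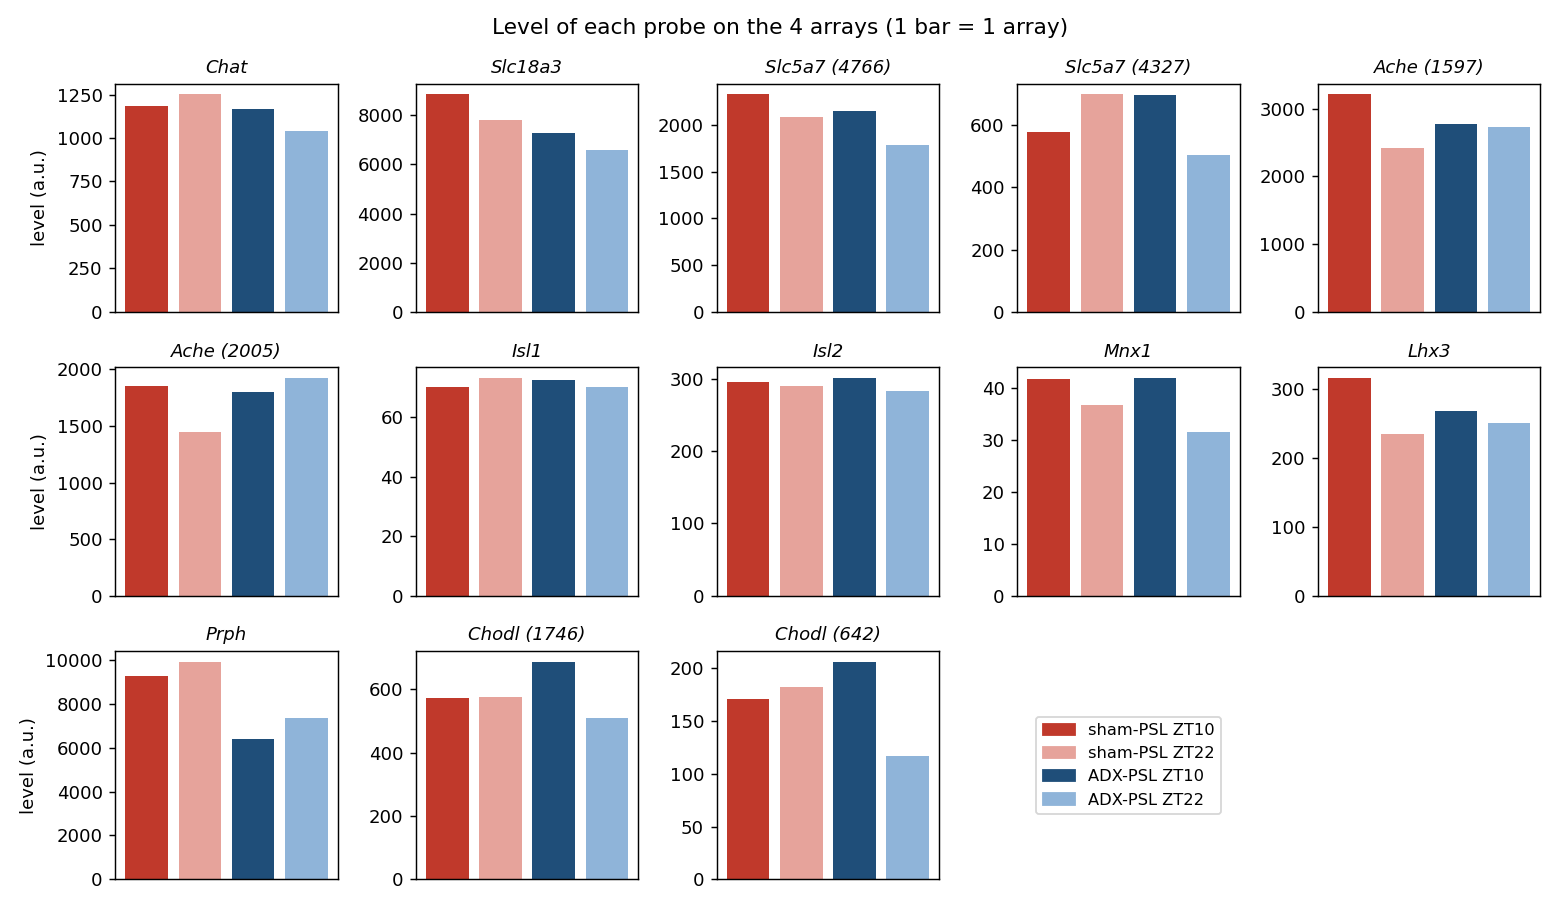
Normalized level of each of the 13 probes (vertical axes, arbitrary units, linear and starting at 0) on the 4 arrays, 1 bar per array. For genes with more than 1 probe the number in brackets is the probe's position in the transcript. The Prph bars separate by operation (9259.2 and 9885.6 against 6392.9 and 7326.6), whereas the Isl1 and Isl2 bars are nearly level.

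Chat encodes choline acetyltransferase, the enzyme that synthesizes acetylcholine. Its level was 1184.4 on the sham-PSL ZT10 array, 1250.5 at sham-PSL ZT22, 1164.8 at ADX-PSL ZT10 and 1041.8 at ADX-PSL ZT22. Both ADX-PSL arrays lay below both sham-PSL arrays, although at ZT10 the gap was only -0.02 on the log2 scale, with a spot error of 0.20. At ZT22 the log2 ratio of ADX-PSL over sham-PSL was -0.26. The time ratios, ZT10 over ZT22, were -0.08 in sham-PSL and 0.16 in ADX-PSL, both within the spot error.

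The Chat probe lies at chr14:33221421-33221480 on the minus strand of mm9, the build of the array design, near the far end of the transcript. Its last 30 bases are shown because they carry a simple repeat, in capitals, which fills 23 of the 60 bases.
Chat probe, last 30 bases: gctattcAGAAAGAAAGAAAGAAAGAAAGA
On the whole array 5 probes hold 4 or more AGAA units in a row. The part of the repeat in the Chat level was not tested.

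Slc18a3 encodes the vesicular acetylcholine transporter and is nested within the Chat gene. Its level was 8843.5 at sham-PSL ZT10, 7795.4 at sham-PSL ZT22, 7280.0 at ADX-PSL ZT10 and 6566.7 at ADX-PSL ZT22. As with Chat, both ADX-PSL arrays were below both sham-PSL arrays. The log2 ratios of ADX-PSL over sham-PSL were -0.28 at ZT10 and -0.25 at ZT22, slightly beyond the spot error of 0.20. Within each operation the ZT10 array was the higher one, by 0.18 in sham-PSL and 0.15 in ADX-PSL on the log2 scale.

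Since Chat and Slc18a3 are neighbours transcribed in the same direction and both were lower on the ADX-PSL arrays, the bases before their annotated starts are given. Sequences and coordinates are those of RefSeq on GRCm38.p6, and capitals mark the E-box CACGTG, the motif through which clock and related factors bind DNA.
Chat, 250 bases before the start, chr14:32465910-32466159, minus strand: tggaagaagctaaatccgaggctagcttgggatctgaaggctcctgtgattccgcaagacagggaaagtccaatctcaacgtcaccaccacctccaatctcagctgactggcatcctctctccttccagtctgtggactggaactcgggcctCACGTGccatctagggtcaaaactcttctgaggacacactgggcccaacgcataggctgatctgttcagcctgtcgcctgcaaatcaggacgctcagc
Slc18a3, 250 bases before the start, chr14:32464851-32465100, minus strand: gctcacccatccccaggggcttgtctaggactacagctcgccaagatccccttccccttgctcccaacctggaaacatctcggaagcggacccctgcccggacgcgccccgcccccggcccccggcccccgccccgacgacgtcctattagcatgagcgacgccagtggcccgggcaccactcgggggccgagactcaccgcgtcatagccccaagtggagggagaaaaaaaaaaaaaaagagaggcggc

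All 10 genes matched the RefSeq promoter table, with 11 windows of 250 bases before to 50 bases after a start. Both strands were searched for 3 motifs. The E-box CACGTG occurred in 2 of the 11 windows, at bases -98 to -93 of Chat and -199 to -194 of Ache, and in 7.15% of all 32851 windows in the table. The glucocorticoid receptor element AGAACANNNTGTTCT, in which N is any base, occurred in none of the 11 windows and in 0.00913% of all windows. Its right arm TGTTCT, which is contained in the full element, occurred in 1 window, at bases -107 to -102 of Isl1, and in 19.0% of all windows. These matches describe the letters of the windows and not binding.

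Slc5a7 encodes the high-affinity choline transporter, which brings choline back into the terminal. It had 2 probes, at positions 4766 and 4327 of the same transcript, both in its last part on chr17. At position 4766 the level was 2324.8 at sham-PSL ZT10, 2088.4 at sham-PSL ZT22, 2143.8 at ADX-PSL ZT10 and 1786.3 at ADX-PSL ZT22. Both ZT10 arrays were above both ZT22 arrays, by 0.15 on the log2 scale after the sham operation and by 0.26 after adrenalectomy.

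At position 4327 the Slc5a7 level was 577.0 at sham-PSL ZT10, 698.8 at sham-PSL ZT22, 698.2 at ADX-PSL ZT10 and 505.6 at ADX-PSL ZT22. Here the time ratio was negative in sham-PSL, at -0.28, and positive in ADX-PSL, at 0.47. The 2 probes therefore gave opposite signs for the time of day in sham-PSL and the same sign in ADX-PSL. For ADX-PSL over sham-PSL the log2 ratios were -0.12 at ZT10 and -0.23 at ZT22 at position 4766. At position 4327 they were 0.28 and -0.47, so the probes also had opposite signs for the operation at ZT10. A direction for Slc5a7 with time in sham-PSL, or with the operation at ZT10, was not settled by these arrays.

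Ache encodes acetylcholinesterase, which ends the signal by hydrolysing acetylcholine. Its 2 probes lie 408 bases apart in the transcript, the first of them at chr5:137733122-137733181 on the plus strand of mm9, and that sequence is shown because it reads within the coding part of the messenger RNA.
Ache probe at position 1597: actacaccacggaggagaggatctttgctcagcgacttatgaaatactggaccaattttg
With this probe the level was 3211.8 at sham-PSL ZT10, 2420.5 at sham-PSL ZT22, 2771.6 at ADX-PSL ZT10 and 2737.1 at ADX-PSL ZT22. The probe at position 2005 gave 1850.7, 1445.6, 1799.4 and 1921.5 on the same arrays in the same order.

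Both Ache probes were lowest on the sham-PSL ZT22 array. The log2 ratio of ZT10 over ZT22 in sham-PSL was 0.41 at position 1597 and 0.36 at position 2005, each beyond the spot error of 0.20. In ADX-PSL the same ratios were 0.02 and -0.09. The sham-PSL ratio exceeded the ADX-PSL ratio by 0.39 and 0.45, with spot errors of 0.29, and with 1 array per condition this difference could not be tested. The operation groups overlapped at both probes.

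The LIM homeodomain factors Isl1 and Isl2 specify motor neurons during development and remain in subsets of them. Isl1 was printed in 10 spots per array, and its level was 70.1 at sham-PSL ZT10, 73.0 at sham-PSL ZT22, 72.5 at ADX-PSL ZT10 and 70.1 at ADX-PSL ZT22. The highest array was 1.04 times the lowest. The widest log2 ratio between arrays was -0.06. The spot error of these ratios, which are between means of 10 spots, was 0.07 to 0.08, and each ratio was within it. The SD of log2 signal between the 10 single spots of 1 array ran from 0.11 to 0.19.

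Isl2 stood at 295.1, 290.1, 300.7 and 282.6 on sham-PSL ZT10, sham-PSL ZT22, ADX-PSL ZT10 and ADX-PSL ZT22. Both ZT10 arrays were above both ZT22 arrays, yet the highest was 1.06 times the lowest and each log2 ratio was within the spot error.

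Mnx1, also known as Hb9, keeps motor neurons from taking an interneuron fate. Its level was 41.6 at sham-PSL ZT10, 36.8 at sham-PSL ZT22, 41.8 at ADX-PSL ZT10 and 31.5 at ADX-PSL ZT22. Both ZT10 arrays were the higher ones, by 0.18 in sham-PSL and 0.41 in ADX-PSL on the log2 scale. At this dim probe the spot error of a ratio was 0.27 to 0.34.

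Lhx3 acts with Isl1 in early motor neurons and, without it, in ventral interneurons. Its level was 315.8 at sham-PSL ZT10, 234.4 at sham-PSL ZT22, 267.7 at ADX-PSL ZT10 and 251.5 at ADX-PSL ZT22. The time ratio was 0.43 in sham-PSL, beyond its spot error, and 0.09 in ADX-PSL. The order of the 4 arrays was that of the coding Ache probe, with sham-PSL ZT10 highest and sham-PSL ZT22 lowest.

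**Figure D2:**
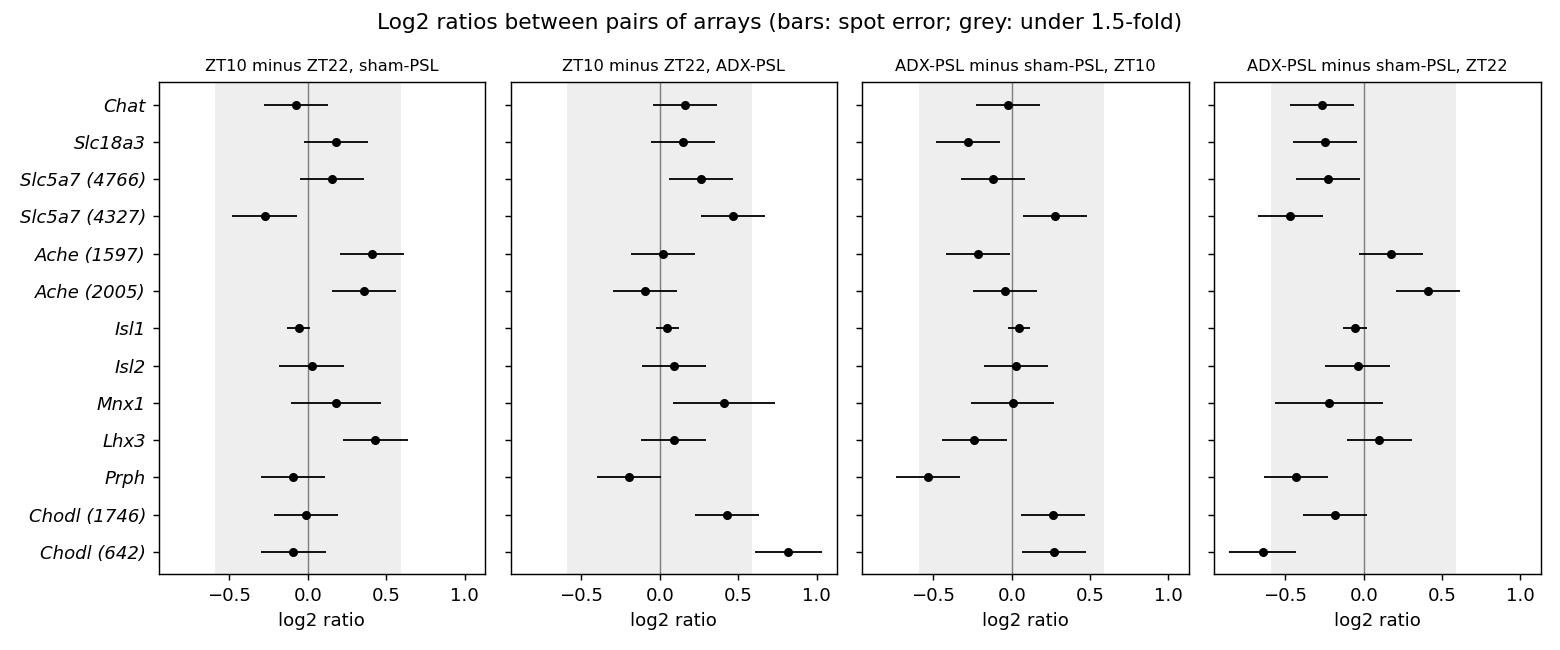
Log2 ratio of each probe (horizontal axes) in the 4 comparisons of single arrays, with the spot error as bars and differences under 1.5-fold shaded. A single probe, Chodl at position 642, leaves the shaded range, at 0.82 for ZT10 over ZT22 in ADX-PSL and at -0.64 for ADX-PSL over sham-PSL at ZT22.

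Prph showed the largest mean difference between the operations among the 13 probes. It encodes peripherin, an intermediate filament protein of neurons that project out of the central nervous system, among them motor, autonomic and sensory ganglion neurons. The probe lies at chr15:98889042-98889101 on the plus strand of mm9 and reads to the end of the coding sequence, with the stop codon in capitals, so that it includes no sequence beyond it.
Prph probe: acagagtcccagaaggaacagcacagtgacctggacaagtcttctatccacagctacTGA
Its level was 9259.2 at sham-PSL ZT10, 9885.6 at sham-PSL ZT22, 6392.9 at ADX-PSL ZT10 and 7326.6 at ADX-PSL ZT22. Both ADX-PSL arrays lay well below both sham-PSL arrays.

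The mean Prph level of the ADX-PSL arrays was 0.717 times that of the sham-PSL arrays. On the log2 scale the difference was -0.53 at ZT10 and -0.43 at ZT22, each beyond the spot error of 0.20. The ZT22 array was the higher one within each operation, by smaller amounts, with ZT10 over ZT22 at -0.09 in sham-PSL and -0.20 in ADX-PSL. Of the 25009 probes measured on all arrays, 2.98% had a mean log2 difference at least as low as the -0.48 of Prph. In the limma fit across all probes the Prph estimate was -0.48 with a standard error of 0.12 and an adjusted p of 0.777.

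Markers of other cells differed between the same arrays. All 7 meningeal fibroblast markers were lower on both ADX-PSL arrays, and their summed level was 15438 at sham-PSL ZT10, 13749 at sham-PSL ZT22, 4758 at ADX-PSL ZT10 and 5330 at ADX-PSL ZT22. Of 5 Schwann cell markers, 4 were on the array and 1 was measured on all arrays, Prx, at 465.9, 246.6, 40.9 and 36.3. Pmp2 and Cldn19 were measured on no array.

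Among 10 sensory ganglion markers 3 were measured on all arrays and 5 on none, including Scn10a and Avil. The summed level of the 3 lay between 1025 and 1188 with the operation groups overlapping. Pou4f1, at 794.1 to 967.5, made up most of it. Singly, Scn11a was higher on both ADX-PSL arrays, while Trpv1 and Mrgprd were lower. Trpv1, measured on 1 array, was 27.0 and 17.0 in sham-PSL and 4.9 and 8.4 in ADX-PSL. Mrgprd, measured on none, was 13.1 and 12.5 against 7.6 and 3.7. The operation groups of the other markers overlapped. The part of the roots and coverings attached to the slices in the Prph, Chat and Slc18a3 differences was not tested. The sham-PSL ZT10 array also stood apart in skeletal muscle markers, of which 2 of 7 were measured on all arrays with a summed level of 674 against 97.8 to 100 on the others. Red blood cell markers were lowest at sham-PSL ZT22, with 17931 against 81049 to 128730, and the part of these differences in the Ache and Lhx3 ratios, which rest on the same arrays, was not tested.

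**Figure D3:**
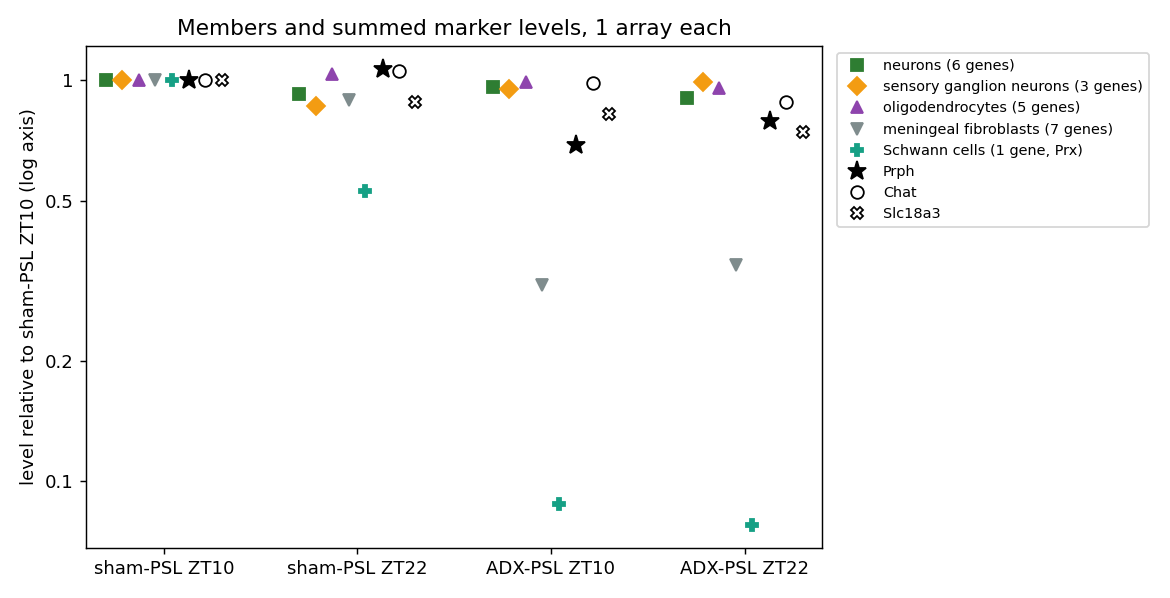
Level relative to the sham-PSL ZT10 array (vertical axis, log scale) of Prph, Chat, Slc18a3 and the summed levels of 5 marker lists on the 4 arrays, 1 point per array and offset sideways within each array. The neuronal, oligodendrocyte and sensory ganglion sums stay near 1, and Pou4f1 makes up most of the last of these. The fibroblast sum stands at 4758 and 5330 on the ADX-PSL arrays against 15438 and 13749. Prph lies between the fibroblast sum and the sums near 1 on the ADX-PSL arrays.

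Chodl encodes chondrolectin, a membrane lectin enriched in fast motor neurons. Its 2 probes lie at positions 1746 and 642 of the transcript on chr16. At position 1746 the level was 571.4 at sham-PSL ZT10, 576.8 at sham-PSL ZT22, 685.5 at ADX-PSL ZT10 and 509.0 at ADX-PSL ZT22. At position 642 it was 170.4, 181.8, 205.5 and 116.4 on the same arrays in the same order.

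Both Chodl probes ranked ADX-PSL ZT10 highest and ADX-PSL ZT22 lowest. The log2 ratio of ZT10 over ZT22 in ADX-PSL was 0.43 at position 1746 and 0.82 at position 642, whereas in sham-PSL it was -0.01 and -0.09. The highest array was 1.77 times the lowest at position 642, the widest range of any member probe. The time ratios of sham-PSL and ADX-PSL differed by -0.44 and -0.91, with spot errors of 0.29 and 0.30, a difference that could not be tested. Ache and Chodl thus differed in which operation held the larger time ratio, with Ache in sham-PSL and Chodl in ADX-PSL, and in each gene the 2 probes gave the same pattern.

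Differences of 1.5-fold or more between ZT10 and ZT22 were found in 0 of 13 member probes in sham-PSL, against 10.6% of all probes measured there. In ADX-PSL they were found in 1 of 13, against 8.98% of all probes. Between the operations the counts were 0 of 13 at ZT10, against 11.5%, and 1 of 13 at ZT22, against 10.2%. The same probe gave both, Chodl at position 642.

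The median log2 ratio of the 13 probes was 0.02 for the time of day in sham-PSL, with 7 above 0 and 6 below. In ADX-PSL it was 0.15, with 11 above 0 and 2 below. For ADX-PSL over sham-PSL it was -0.02 at ZT10, with 6 above and 7 below, and -0.22 at ZT22, with 3 above and 10 below. The medians over all measured probes in these comparisons lay between 0.00 and 0.01. The ADX-PSL ZT22 array takes part in both comparisons with the larger medians, so these are not separate observations. The median size of the ratio regardless of sign was 0.15, 0.16, 0.21 and 0.23 in the members in that order of comparisons. In the probes measured on all arrays it was 0.15, 0.14, 0.14 and 0.15.

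Both ADX-PSL arrays were lower than both sham-PSL arrays for 3 of the 13 probes, Chat, Slc18a3 and Prph, against 16.1% of the 25009 probes measured on all arrays. They were higher for 0 of 13, against 18.9%. Both ZT10 arrays were higher than both ZT22 arrays for 5 of 13 probes, those of Isl2, Mnx1 and Lhx3, Ache at position 1597 and Slc5a7 at position 4766, against 18.2%. They were lower for 0 of 13, against 15.5%. Grouping the arrays as 2 against 2, an exact two-sided permutation test cannot go below 0.333.

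limma was fitted across 28843 probes with the operation and the time of day as additive terms, which left 1 residual degree of freedom and treated any unequal time effect in sham-PSL and ADX-PSL as error. At an adjusted p of 0.05 it called 0% of all probes for the operation and 0% for the time of day, and so 0 of the 13. At an unadjusted p of 0.05 it passed 1803 probes (6.25%) for the operation, with Prph the 1 member among them, and 1420 probes (4.92%) for the time of day, with no member among them. The limma adjusted p of the members ran from 0.777 to 0.999 for the operation and from 0.932 to 0.998 for the time of day.

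**Figure D4:**
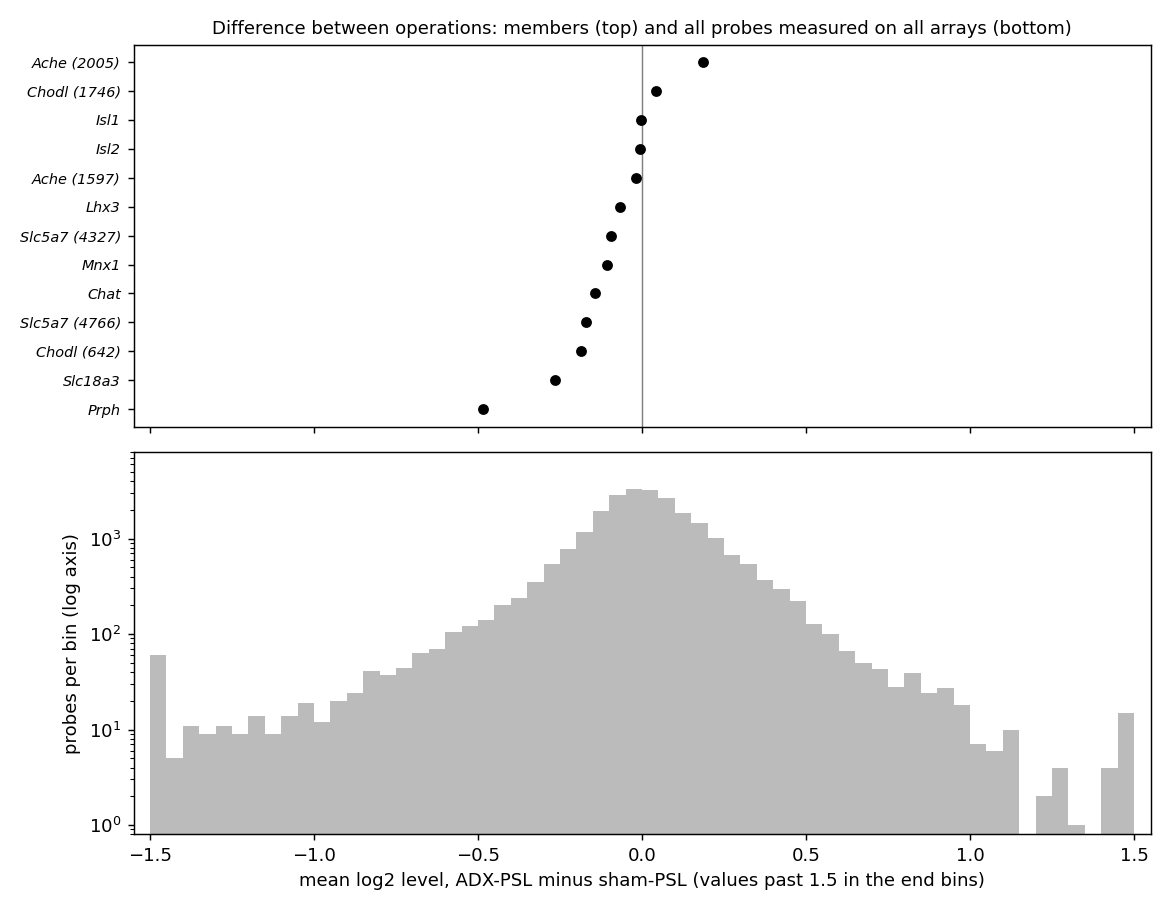
Mean log2 difference between ADX-PSL and sham-PSL (horizontal axis) for the 13 member probes (top, 1 point each) and for the 25009 probes measured on all arrays (bottom, probes per bin on a log axis, with values past 1.5 collected in the end bins). Prph, at -0.48, is the lowest member, and 11 of the 13 points lie below 0, as do 48.7% of all probes. Of these 11, Isl1, Isl2 and Ache at position 1597 lie within 0.02 of 0 and changed sign with the normalization.

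Further genes of the same systems were described from lists. Of 24 genes of cholinergic transmission, 19 were measured on all arrays, and the nicotinic subunits Chrna3, Chrna5 and Chrnb3 and the muscarinic receptors Chrm1 and Chrm5 were not. Chrna5 and Chrnb3 were measured on no array and were not fitted, and limma called 0 of the other genes for either term. Both ADX-PSL arrays were lower for 4 of the 19 and higher for 3, near the 16.1% and 18.9% of all probes measured on all arrays. Both ZT10 arrays were lower for 2 and higher for 2, beside 15.5% and 18.2% of all probes.

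Bche, butyrylcholinesterase, which also hydrolyses acetylcholine, was 847.6 at sham-PSL ZT10, 1226 at sham-PSL ZT22, 619.9 at ADX-PSL ZT10 and 838.5 at ADX-PSL ZT22, a mean log2 difference of -0.50 between the operations. Slc10a4, a vesicular protein of cholinergic neurons, was 811.8, 763.4, 759.5 and 583.1 on the same arrays, with both ADX-PSL arrays lower. Chrm4, a muscarinic receptor, was higher on both ADX-PSL arrays at 59.6 and 52.2, against 47.7 and 42.7. Prima1, the protein that anchors acetylcholinesterase in the membrane of neurons, was 1741 at sham-PSL ZT10 and 2886 at sham-PSL ZT22, a ratio opposite in sign to that of Ache, and 2069 and 2030 in ADX-PSL.

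The brightest probes of that list were those of Lynx1, a membrane-bound modulator of nicotinic receptors, and Slc44a1, a choline transporter of general use. Lynx1 ranged from 19807 to 25372 over the 4 arrays and was lowest at sham-PSL ZT22. Slc44a1 ranged from 6818 to 8044, with both ZT10 arrays lower than both ZT22 arrays. A pair of nicotinic subunits had wide time ratios at low levels. Chrnb4 at ZT10 and ZT22 was 48.9 and 93.6 in sham-PSL and 77.3 and 60.3 in ADX-PSL, and Chrna6 was 44.99 and 71.3 in sham-PSL and 65.2 and 33.1 in ADX-PSL, so that both ratios changed sign between the operations.

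Of 18 other transcription factors and cofactors of motor neurons and their neighbours, 17 were measured on all arrays, and limma called 0 of the 18 for either term. Both ADX-PSL arrays were lower for 1 of the 17 and higher for 3, beside 16.1% and 18.9% of all probes. For the time of day, both ZT10 arrays were lower for 2 and higher for 3, beside 15.5% and 18.2%. Ldb1, the cofactor that links Lhx3 and Isl1 in a complex, at ZT10 and ZT22 was 1292 and 1302 in sham-PSL and 1190 and 1037 in ADX-PSL, a mean log2 difference of -0.22. Lhx4, a close relative of Lhx3, was 163.6 and 122.8 in sham-PSL and 160.2 and 116.1 in ADX-PSL, higher at ZT10 in both. The Hox factor Hoxc8 was the 1 gene of the list with a 1.5-fold difference, at 60.5 and 107.2 in sham-PSL. Hoxd10, another Hox factor, was 1132 and 805.6 in sham-PSL and 1090 and 1109 in ADX-PSL, lowest on the array where Ache and Lhx3 were lowest. Neurog2, a proneural factor, was dim, at 35.6 and 26.2 in sham-PSL and 40.0 and 35.4 in ADX-PSL. The brightest probes, those of Etv1 and Lmo4, ranged from 8885 to 10239 and from 5413 to 6688 over the 4 arrays.

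Of 25 motor neuron subtype and effector genes, 24 were measured on all arrays, all but Htr1d, and limma called 0 of the 25 for either term. Both ADX-PSL arrays were lower for 8 of the 24 and higher for 2, beside 16.1% and 18.9% of all probes measured on all arrays. Both ZT10 arrays were higher for 10 and lower for 0, beside 18.2% and 15.5% of all probes. Genes of this list were chosen with earlier results known, and nothing particular to the list is read from these counts. The neurofilament genes Nefl, Nefm and Nefh, whose products fill large axons, were higher at ZT10 in both operations. Nefl was 84874 and 77111 in sham-PSL and 77682 and 68827 in ADX-PSL. Nefh was 108740 and 97585 in sham-PSL and 99872 and 90005 in ADX-PSL. Nefm was 47261 and 35561 in sham-PSL and 38502 and 31566 in ADX-PSL. Prph had the opposite time order. The operation groups of the 3 neurofilament genes overlapped, unlike those of Prph, yet at each time the ADX-PSL array was lower for all 3. The log2 ratios of ADX-PSL over sham-PSL at ZT10 and ZT22 were -0.13 and -0.16 for Nefl and -0.12 and -0.12 for Nefh, within the spot error of 0.20. For Nefm they were -0.30 and -0.17, beyond its spot error of 0.06. That error is smaller because the Nefm probe was printed in 10 spots, against 1 spot each for Nefl and Nefh. The comparison with the spot error therefore does not set Nefm apart from the other neurofilament genes.

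The largest mean differences between the operations in this list were those of Aldh1a2 and Ngfr, both lower on the ADX-PSL arrays. Aldh1a2, a retinoic acid synthesizing enzyme of limb motor neurons that meningeal cells also make, was 593.8 and 885.7 in sham-PSL and 259.4 and 202.8 in ADX-PSL, a mean log2 difference of -1.66. Ngfr, the low-affinity neurotrophin receptor, which Schwann cells also make, was 524.6 and 649.9 in sham-PSL and 258.7 and 418.8 in ADX-PSL, a mean of -0.83. Both were lower on the same arrays as the fibroblast and Schwann cell markers given above, whose part in these values was not tested. Vipr2, a receptor for vasoactive intestinal peptide, had the widest time ratio of the list, at 227.0 and 114.8 in sham-PSL and 245.5 and 138.0 in ADX-PSL, a log2 ratio of 0.98 and 0.83.

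**Figure D5:**
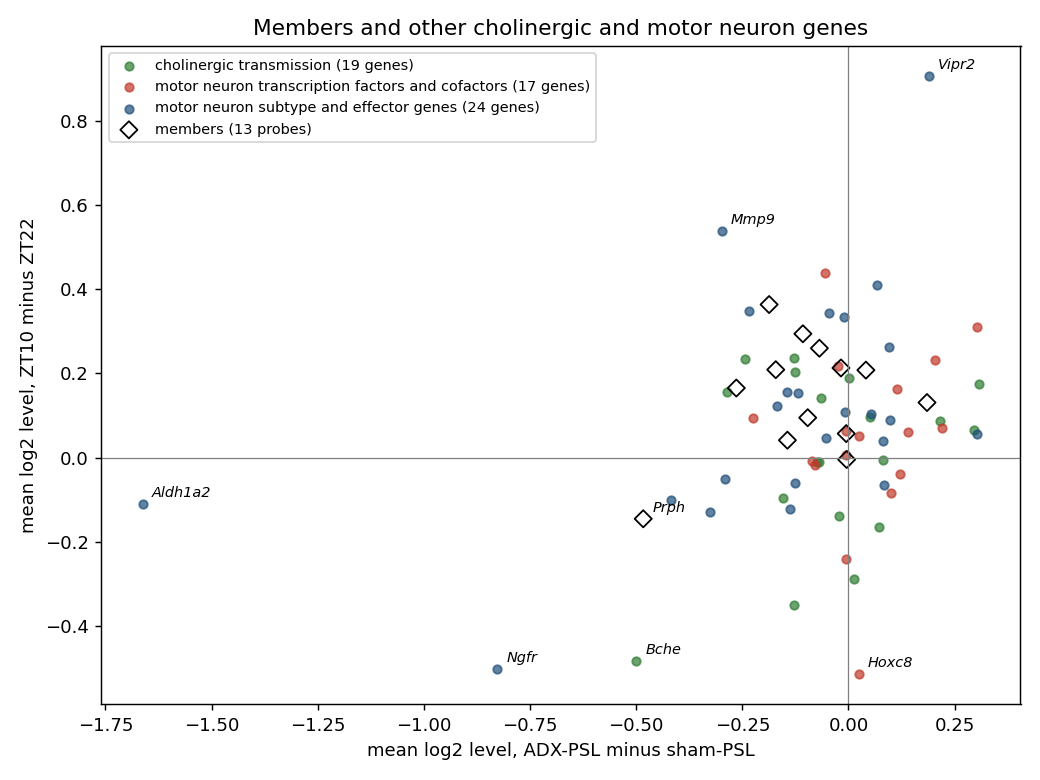
Mean log2 difference between the operations (horizontal axis) and between the times of day (vertical axis) for the 13 member probes (diamonds) and the genes of the 3 lists measured on all arrays (circles, 1 probe per gene). Most points lie close to the origin, and Aldh1a2 at -1.66 and Ngfr at -0.83 lie far to the left of Prph at -0.48.

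Likeness to Chat was measured as the root mean square distance of log2 levels over the 4 arrays after centring each probe on its own mean, and 869 of 25008 probes lay within 0.05 of Chat, whose own range was 0.26. The 5 nearest genes were Med8 at 0.0048, Tmed10 and Mxra7 at 0.0050, Phgdh at 0.0073 and Gm9892 at 0.0075. None of them was a member. The nearest members were Isl1 at 0.081, Isl2 at 0.082 and Slc5a7 at 0.091, and Slc18a3 followed at 0.110. A probe that is nearly flat over the arrays, as Isl1 is, can lie close to Chat by this distance without sharing its order of arrays, and with 4 arrays and a range close to the spot error the distances are a description.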

How the data were processed

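RNA of 4 samples was hybridized to 1-colour Agilent arrays of 60-base probes on 1 slide. The authors' deposited scanner intensities came from Feature Extraction (10.7.1.1 per the file headers, 9.5.1.1 per the labels), and flags of 0 or 1 deposited with them mark spots well above background. The authors' processed table holds linear intensities, quantile-normalized over the 4 arrays, which served as levels after log2 transformation. Ratios were taken between single arrays, with a limit of 1.5-fold, over probes measured on at least 1 of the pair as the flags give it. limma 3.58.1 in R 4.3.3 fitted operation and time across all probes measured, with Benjamini-Hochberg adjustment. It was also run on simulated data with equal noise in all probes and no time effect. That run does not show how the fit behaves on these arrays. Members and gene lists were chosen with earlier results of these data known. The named genes of each list were, among those measured on all arrays, the 2 brightest, the 2 with the largest operation difference and the 2 with the largest time ratio, with Slc10a4, Prima1, Lhx4 and Nefm chosen after their values were seen. The number of arrays limits the precision. Alternatives were another quantile normalization, scaling to the 75th percentile, no normalization, normexp background correction with an offset of 50, mean signals, a 2-fold limit, other fits and leaving out each array.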

Additional observations from a re-analysis of the deposited data

How the results depend on the processing

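Over the normalizations tried, Chat, Slc18a3 and Prph were lower on both ADX-PSL arrays each time, and Prph kept a mean log2 difference between -0.52 and -0.47. Leaving out 1 array at a time gave -0.58 to -0.38 for Prph. For 8 of the 13 member probes the sign of the operation difference depended on the array left out. Each omission leaves 1 operation with a single time of day, so part of the time difference enters these values. Of 5 probes higher on both ZT10 arrays, Mnx1 alone was so under every normalization. Without normalization the median of all probes shifted by 0.08, -0.08, -0.05 and 0.12 in the 4 comparisons, and the member median was 0.105 for time in sham-PSL, 0.034 for time in ADX-PSL, -0.11 for the operation at ZT10 and -0.10 at ZT22, with 1 member past 1.5-fold at ZT10 and 0 at ZT22. With normexp the median was 0.041 for time in ADX-PSL and -0.14 for the operation at ZT22, and with mean signals 0.037 and -0.15, with 0 members past the limit at ZT22 in both. With a 2-fold limit the count was 0 for time in ADX-PSL and 0 for the operation at ZT22. Of 455 single values recomputed, 438 moved by less than their error, and in each comparison 10 or 11 of the 13 probes kept their sign under every normalization. The cause of these shifts was not tested. With 1 array per condition, differences of the size of the spot error, near 0.20, were not shown to belong to the condition. That error is assigned by the software and is not a measured limit of detection. The variation between mice, RNA extracts and hybridizations was not measured, so larger differences were not shown to belong to the condition either.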
